A study of Rattus norvegicus with 12 samples.

Results

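Genes taken as markers of mast cells were followed in the colon of rats. Mcpt1, Mcpt2 and Cma1 are named on the array as chymases and Cpa3 as a carboxypeptidase of mast cell granules. Tpsab1 and Tpsb2 are tryptases, and Fcer1a and Ms4a2 are chains of the IgE receptor. Kit is the receptor for stem cell factor, and Hdc is the enzyme that makes histamine. Every non-control probe that the array files name with one of these symbols was taken, which gave 11 probes for 10 genes, of 30367 probes for 26514 gene names. The genes were selected on results of these same arrays that were already known, so their differences among the groups are given as a description, and the tests beside them are not independent evidence about the genes.

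Mast cells are granulated immune cells that settle in the mucosa and connective tissue of the gut. An antigen that crosslinks IgE on their high-affinity receptor makes them release histamine, proteases and lipid mediators. In rats, mucosal mast cells are known for a chymase called rat mast cell protease II, while connective tissue mast cells are known for other chymases, carboxypeptidase A3 and tryptases, and mast cell mediators are known to act on sensory nerves of the gut.

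The arrays measured RNA of unsorted colon tissue of 12 male Wistar rats of 200 to 250 g, 4 in each group. The methods took the same segment, near the anus, in each rat. All were killed on postnatal day 60 after colorectal distension, the inflation of a balloon in the colon that is used to measure visceral pain. Group C (C1 to C4) had been handled normally with the dam and received placebo, 100 µL of saline by gavage from day 3 to day 60. Group M (M5 to M8) had undergone neonatal maternal separation (NMS) for 180 min daily from day 2 to day 14, with placebo over the same days. Group D (D9 to D12) had undergone NMS and received VSL#3, a mixture of probiotic bacteria, from day 3 to day 60, by gavage in 100 µL, at a dose on which the labels and the methods differ. No group on the arrays was separated from the dam without gavage, and none on the arrays was left without distension. The labels give 1 array per rat and no litter, so p-values measure the spread between these rats.

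Levels are log2 signals relative to the 75th percentile of each array, so that 0 is that percentile and each step of 1 is a doubling. A probe is called well above background on an array where no more of its usable spots lacked the scanner's mark for this than carried it. Markers of epithelium (5 of 5 measured) and of smooth muscle (5 of 5) were well above background on all 12 arrays. The methods analyse 11 arrays and leave out rat D12 without giving a reason; the tests here do the same, and values of D12 stand beside them. Groups C and M shared a slide, in different rows of it, and Group D was hybridised on another, so for both comparisons with Group D the slide and the group cannot be told apart.

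Some rats stood apart within their groups. The mean level of 6 T and cytotoxic lymphocyte markers, all 6 well above background on every array, was -3.65, -1.73, -3.75 and -3.37 in C1 to C4, -1.60, -3.61, -1.88 and -2.06 in M5 to M8, and -3.74, -2.90, -3.10 and -1.17 in D9 to D12. C2 and D12 thus lay with 3 rats of Group M, and M6 lay with Group C. Values without C2 or M6, and with D12, are given beside many of the member results that they move.

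The probe sequences matter for the chymases, because these genes lie side by side on chromosome 15 and are similar in sequence. The longest run that the Mcpt2 probe shared with another probe of the array was 23 bases, with the probe for the transcript ENSRNOT00000028012, which the files describe as mast cell protease 1 precursor. The Mcpt2 probe lies on chr15:34557829-34557888 (rn4, plus strand) and the other within chr15:34590324-34590791 (minus strand). Both are printed with the shared run in capitals.
Mcpt2: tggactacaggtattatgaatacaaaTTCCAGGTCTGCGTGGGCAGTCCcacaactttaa
ENSRNOT00000028012: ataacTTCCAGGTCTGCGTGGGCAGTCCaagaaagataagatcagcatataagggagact
Over their 39 overlapping bases 32 were identical, so either probe may take signal from the other gene and the values of both are uncertain in that respect. For the other 10 member probes the longest run shared with any other gene's probe was 12 to 15 bases. Probes were compared with probes only, so this does not show whether a probe takes signal from another gene's transcript. Gene names have also moved: the RefSeq accession that the array calls Mcpt1 is now named Vch, vascular chymase, and the one it calls Mcpt2 is now Mcpt1. The names of the array are kept here. Whether the signal of the probe called Mcpt1 came from mast cells was not tested.

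**Figure D1:**
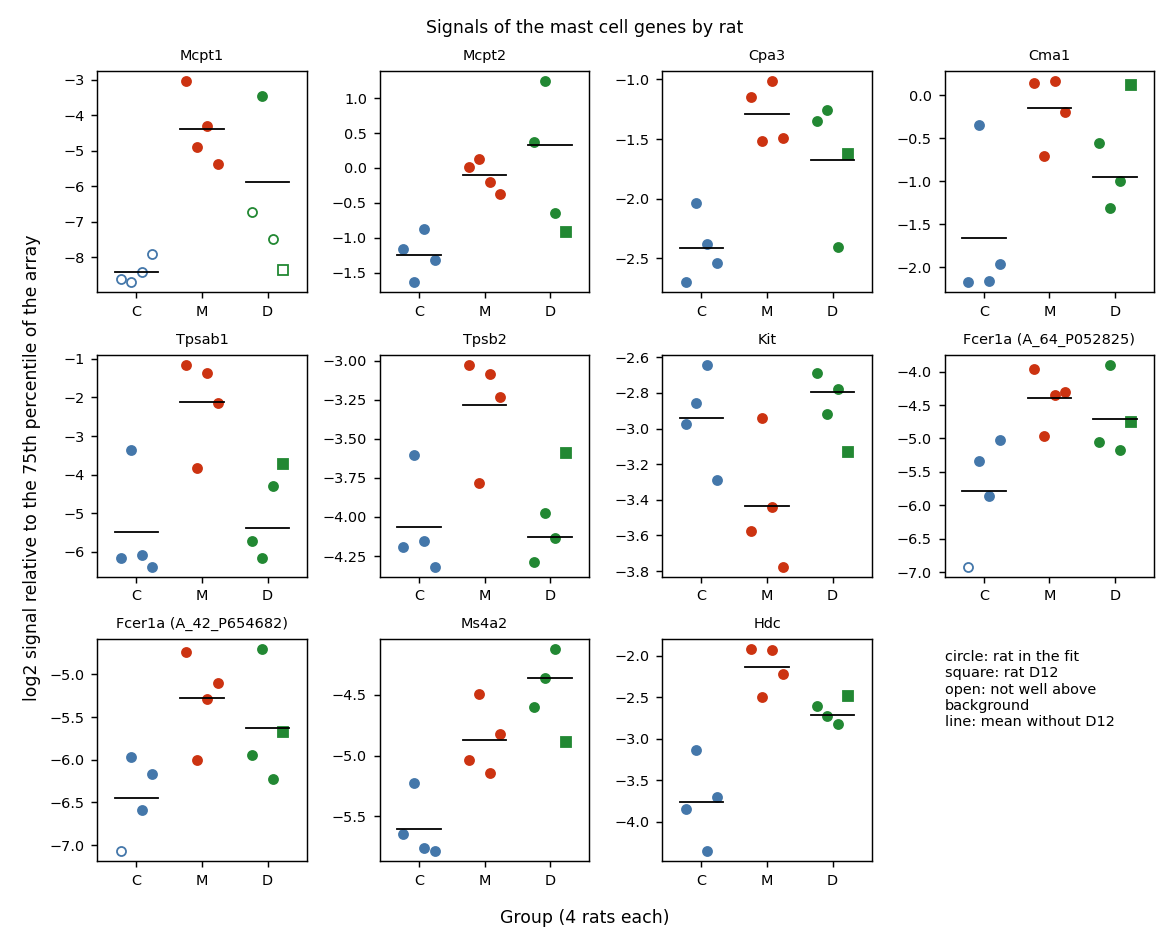
Level of each of the 11 member probes in every rat, as log2 signal relative to the array's 75th percentile (vertical axis), with Groups C, M and D side by side. Circles are rats, open where the probe was not well above background, lines are group means without rat D12, and D12 is a square. Hdc and Cpa3 show Groups C and M without overlap, and the Tpsab1 values of C2 and M6 lie close to each other between their groups.

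Groups M and C were compared to see how rats with NMS differed from normally handled rats. Of the 11 member probes 10 were higher in Group M, with a median difference of 1.17 on the log2 scale against -0.01 over all probes, and Kit alone was lower. Hdc rose 3.06-fold and was the 1 member probe called by limma. The rule, an adjusted p not above 0.05 with a difference of 2-fold or more, called 50 of all probes (0.165%). Leaving out M6 raised the number of all probes called many times over, also between Groups D and M, as the last section gives. Lower adjusted p-values without M6 are thus not particular to the members. With any rat of the fit other than C2, M6 or D10 left out, no member probe was called between Groups M and C. The methods' criterion, an analysis of variance with Tukey's test at an unadjusted p and a 2-fold difference, took 7 member probes and 2.31% of all probes. For 6 member probes every rat of Group M lay above every rat of Group C, which held for 4.18% of all probes with a value on every array. Since the genes were chosen by such differences, nothing is read from these counts. In whole tissue, a different number of mast cells and a different amount of RNA per mast cell cannot be told apart.

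Hdc, histidine decarboxylase, turns histidine into histamine. Its level was -3.85, -3.14, -4.35 and -3.70 in Group C, and -1.92, -2.50, -1.93 and -2.22 in Group M. The highest rat of Group C lay below the lowest of Group M. The difference was 1.61 on the log2 scale (SE 0.23, limma adjusted p = 0.0421, 4 rats in each group). With all 12 arrays in the fit the adjusted p was 0.0479, and leaving out any of C1, C3, C4, M5, M7, M8, D9 or D11 ended the call. Without M6 the difference was 1.73 (limma adjusted p = 0.00853), and without C2 it was 1.82 (limma adjusted p = 0.0103).

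The probe for Mcpt1 was well above background in all 4 rats of Group M and in D10, and in no rat of Group C. Its level was -3.03, -4.90, -4.30 and -5.38 in M5 to M8, and between -8.70 and -7.89 in Group C. The mean of Group M was 10.4-fold above the lowest signal that counted as well above background on the arrays of Group C. That bound is not a strict limit, since a probe could lie above it without the mark, as Fcer1a did in C1. The fold is thus not a minimum, and with another background correction (normexp) the log2 difference was 1.16. The fitted log2 difference was 4.00 (SE 0.79, limma adjusted p = 0.0867), 4.17 without M6 (limma adjusted p = 0.0190) and 3.90 without C2 (limma adjusted p = 0.0775). These values are of the transcript now named Vch. The ENSRNOT00000028012 probe, described as mast cell protease 1 precursor, was well above background on all 12 arrays. It ran from -2.25 to -1.96 in Group C and differed by 1.34 between Groups M and C (limma adjusted p = 0.0895).

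Mcpt2, the chymase that the array's name ties to mucosal mast cells, was measured at a high level in every rat. It was -1.16, -1.64, -0.88 and -1.32 in Group C, and 0.02, 0.13, -0.20 and -0.37 in Group M. All 4 rats of Group M lay above all 4 of Group C, by a mean of 1.14 on the log2 scale or 2.21-fold (SE 0.34, limma adjusted p = 0.116). The mean difference was 1.07 without M6 (limma adjusted p = 0.0860) and 1.01 without C2 (limma adjusted p = 0.131).

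Cpa3, the carboxypeptidase stored with chymase in the granules, was -2.70, -2.04, -2.38 and -2.54 in Group C and -1.14, -1.52, -1.01 and -1.49 in Group M. The groups did not overlap, and the mean difference was 2.18-fold (log2 1.12, SE 0.26, limma adjusted p = 0.0932), 1.20 without M6 (limma adjusted p = 0.0252) and 1.25 without C2 (limma adjusted p = 0.0735). Cma1, a further chymase, was -2.17, -0.34, -2.16 and -1.96 in Group C and 0.14, -0.70, 0.17 and -0.20 in Group M. Here C2 lay above M6, and the other 3 rats of Group C lay below every rat of Group M. The mean difference was 2.85-fold (log2 1.51, SE 0.40, limma adjusted p = 0.105). It was 1.95 without C2 (limma adjusted p = 0.0205) and 1.69 without M6 (limma adjusted p = 0.0288).

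The tryptases separated the same rats. Tpsab1 was -6.16, -3.37, -6.08 and -6.38 in Group C and -1.16, -3.82, -1.36 and -2.14 in Group M. C2 was again the highest of its group and M6 the lowest, so that the groups overlapped although their means differed 10.4-fold (log2 3.38, SE 0.79, limma adjusted p = 0.0961). Without M6 the difference was 3.95 (limma adjusted p = 0.0140), and without C2 it was 4.09 (limma adjusted p = 0.0481). Tpsb2 was -4.19, -3.60, -4.15 and -4.32 in Group C and -3.03, -3.78, -3.09 and -3.23 in Group M, a mean difference of 0.78 (SE 0.20, limma adjusted p = 0.101), 0.95 without M6 (limma adjusted p = 0.0130) and 0.94 without C2 (limma adjusted p = 0.0665). M6 lay below C2 for this gene too. The lymphocyte markers, given above, put C2 and M6 in the same order, and their part in the tryptase values was not tested.

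The alpha chain of the IgE receptor, which binds IgE, had 2 probes. The first was -6.92, -5.34, -5.86 and -5.03 in Group C and -3.97, -4.97, -4.35 and -4.31 in Group M, with no overlap, and C1 was not well above background. The mean differed by 1.39 (SE 0.43, limma adjusted p = 0.121). The second ran from -7.07 to -5.97 in Group C and from -6.00 to -4.74 in Group M, where M6 fell within the range of Group C, and differed by 1.17 (SE 0.38, limma adjusted p = 0.130). The probes thus had the same direction and differed in whether the groups overlapped, and without M6 the differences were 1.58 (limma adjusted p = 0.0443) and 1.41 (limma adjusted p = 0.0366). Without C2 they were 1.54 (limma adjusted p = 0.0980) and 1.33 (limma adjusted p = 0.101). Ms4a2, the beta chain that amplifies the receptor's signal, was -5.64, -5.23, -5.76 and -5.78 in Group C and -5.04, -4.49, -5.14 and -4.82 in Group M. The groups did not overlap, and the difference was 0.73 (SE 0.18, limma adjusted p = 0.0989), below 2-fold. Without M6 it was 0.61 (limma adjusted p = 0.0418), and without C2 it was 0.86 (limma adjusted p = 0.0675).

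Kit went the other way. It was -2.97, -2.86, -2.64 and -3.29 in Group C and -3.57, -2.94, -3.44 and -3.78 in Group M, with M6 inside the range of Group C and a mean difference of -0.49 (SE 0.19, limma adjusted p = 0.163), -0.66 without M6 (limma adjusted p = 0.0259) and -0.46 without C2 (limma adjusted p = 0.204). Kit is also made by interstitial cells of Cajal, the pacemaker cells of the gut. The 2 markers of those cells on the array, Ano1 and Etv1, were both well above background on every array, and both were lower in Group M, by log2 differences of -0.63 (limma adjusted p = 0.136) and -0.66 (limma adjusted p = 0.118). Their mean level ran from -0.83 to -0.35 in Group C, from -1.65 to -0.85 in Group M and from -1.69 to -0.41 in Group D, with D12 at the lower end. Whether these cells had a part in the Kit values was not tested.

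**Figure D2:**
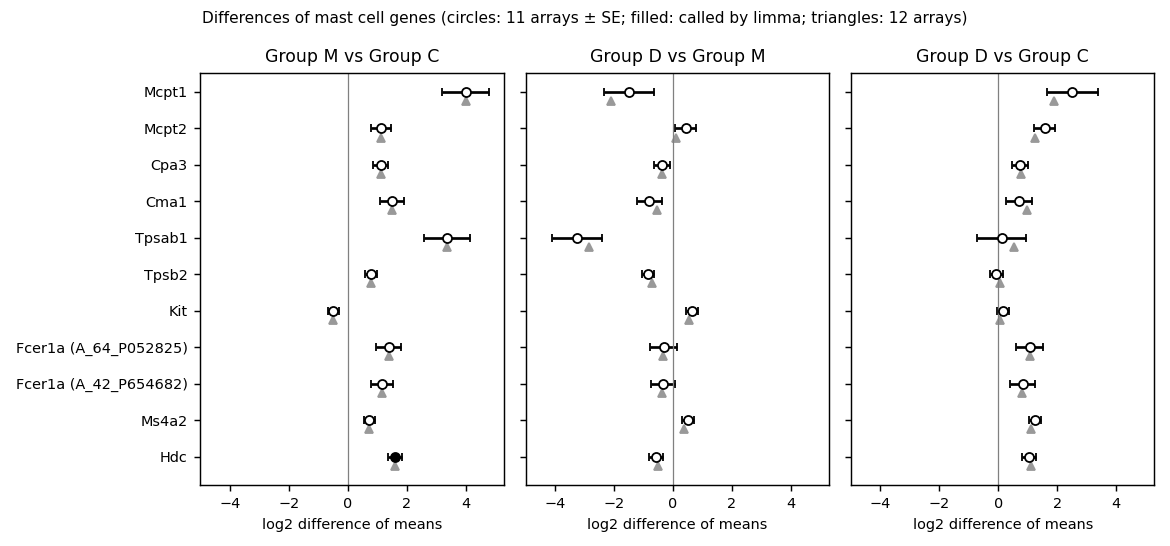
Log2 difference of each member probe for Group M minus Group C, Group D minus Group M and Group D minus Group C, from limma on 11 arrays, with bars of 1 SE. The filled circle is the called probe, Hdc, and triangles are fits to 12 arrays. In the first comparison every probe but Kit lies to the right of 0, and in the second Tpsab1 lies farthest to the left, at -3.27.

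Groups D and M were compared to see how rats with NMS and VSL#3 differed from rats with NMS and placebo. Tpsab1 was -5.73, -6.15 and -4.29 in D9, D10 and D11, below every rat of Group M, and -3.74 in D12, which lay above M6. The mean over the 3 rats was lower by 3.27 on the log2 scale (SE 0.85, limma adjusted p = 0.0992), and with all 12 arrays the difference was -2.86 (limma adjusted p = 0.228). Tpsb2 was -4.29, -3.97 and -4.13 in D9 to D11, again below every rat of Group M, with a difference of -0.85 (SE 0.21, limma adjusted p = 0.0954), and was -3.59 in D12. The tryptases of D9 to D11 lay within the range of Group C, which C2 widens: among C1, C3 and C4 the highest values were -6.08 for Tpsab1 and -4.15 for Tpsb2, and D9 and D11 lay above the first and D10 and D11 above the second. Without M6 the differences were -3.84 for Tpsab1 (limma adjusted p = 0.0175) and -1.02 for Tpsb2 (limma adjusted p = 0.0129).

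No member probe was called by limma between Groups D and M, where the rule called 39 of all probes (0.128%). At an unadjusted p under 0.05, limma took 5 member probes against 21.6% of all probes, and the methods' criterion took 1, Tpsab1, against 2.66%. In 3 member probes every one of the 3 rats lay below every rat of Group M, as in 7.38% of all probes, and in 1 (Kit) every rat lay above, as in 8.46%. With D12 included none of the 11 kept the groups apart.

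The chymases and Cpa3 did not share 1 order of rats in Group D. Mcpt2 was 0.37, 1.25, -0.65 and -0.92 in D9 to D12. D10 had the highest value of all 12 rats and the spread reached from near Group C to above Group M, so that the mean of D9 to D11 was 0.43 above Group M (SE 0.37, limma adjusted p = 0.543). Mcpt1 was well above background in D10 at -3.45, and at -6.73, -7.49 and -8.35 in D9, D11 and D12 it was not. Cpa3 was -1.35, -1.25, -2.41 and -1.63 in D9 to D12, with D11 inside the range of Group C and a mean difference from Group M of -0.38 (SE 0.28, limma adjusted p = 0.462). Cma1 was -0.56 in D9, -1.31 in D10, between these in D11 and 0.12 in D12, so that D10 was its lowest rat and D12 its highest, as for Tpsab1. It differed from Group M by -0.81 (SE 0.43, limma adjusted p = 0.306).

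Hdc was -2.61, -2.73, -2.82 and -2.49 in D9 to D12, a narrow range between those of the other groups. The 3 rats of the test lay below every rat of Group M and above every rat of Group C, while D12 lay just above M6. The difference from Group M was -0.57 (SE 0.25, limma adjusted p = 0.220) and from Group C 1.04 (SE 0.25, limma adjusted p = 0.525). The means thus stood in the order C, D, M, and the test separated D from neither M nor C.

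The receptors held their own order. Ms4a2 was -4.60, -4.36, -4.12 and -4.89 in D9 to D12, above every rat of Group C also with D12. It differed by 0.51 from Group M (SE 0.19, limma adjusted p = 0.172) and by 1.24 from Group C (SE 0.19, limma adjusted p = 0.192). The difference from Group M was 0.64 without M6 (limma adjusted p = 0.0466) and 0.38 with D12 (limma adjusted p = 0.471). The first Fcer1a probe was -5.05, -3.90, -5.18 and -4.76, overlapping both other groups, with D10 the highest of all 12 rats. Kit was -2.69, -2.92 and -2.78 in D9 to D11, above every rat of Group M, and -3.13 in D12. Its difference was 0.64 from Group M (SE 0.20, limma adjusted p = 0.130) and 0.15 from Group C. The former was 0.80 without M6 (limma adjusted p = 0.0182) and 0.56 with D12 (limma adjusted p = 0.302).

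Groups D and C differ in both NMS and VSL#3. Of the 11 member probes 10 were higher in Group D, with a median difference of 0.82 against -0.01 over all probes, and Tpsb2 differed by -0.07. No member probe was called by limma, where the rule called 2 of all probes (0.00659%). Limma at an unadjusted p under 0.05 took 6 member probes against 5.97% of all probes, and the methods' criterion took 3 (Mcpt2, Ms4a2 and Hdc) against 0.369%. Mcpt1, Mcpt2, Ms4a2 and Hdc were higher in each of the 3 rats than in every rat of Group C, as in 3.55% of all probes, and with D12 included this held for Ms4a2 and Hdc. Mcpt2 differed by 1.57 (SE 0.37, limma adjusted p = 0.520). Mcpt1 was well above background in D10 alone of these rats, so no fold is given for it. All 3 comparisons share groups with one another.

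**Figure D3:**
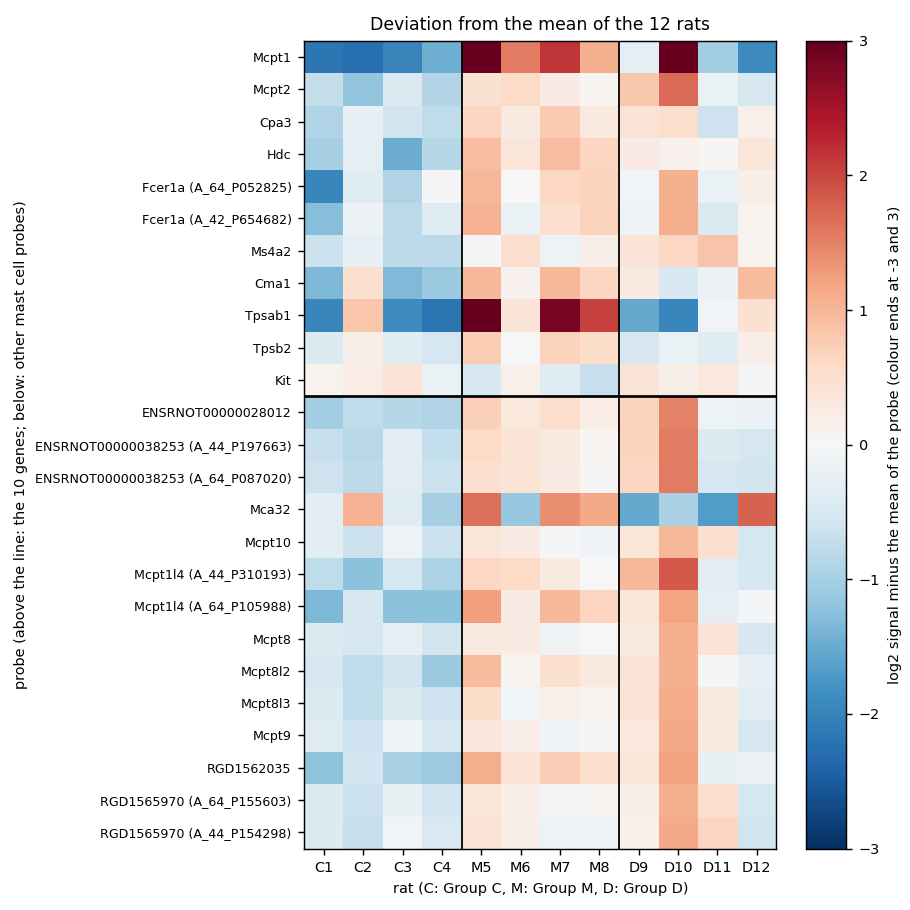
Deviation of each probe's log2 signal from its mean over the 12 rats, as colour from -3 to 3, with rats along the horizontal axis, the 11 member probes above the line and other mast cell probes below it. Cma1, Tpsab1 and Tpsb2 are highest within Group C in C2, whereas within Group D rat D10 is highest for Mcpt1, Mcpt2 and 13 other probes of the chymase cluster and lowest for Cma1 and Tpsab1.

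The rats' order thus differed between members. Within Group M, M6 had the lowest value for 7 of the 11 member probes and the highest for 3. Within Group C, C2 had the highest value for 7 and the lowest for 2. Within Group D, D10 had the highest value for 5 probes and D12 for 4.

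Other probes of the chymase cluster on chromosome 15 were read beside the members. The files describe 13 such probes, for 10 gene names, that were well above background on all 12 arrays, among them Mcpt8, Mcpt8l2, Mcpt8l3, Mcpt9, Mcpt10 and Mcpt1l4. All 13 were higher in Group M than in Group C, by 0.48 to 1.85 on the log2 scale, and in 12 of them every rat of Group M lay above every rat of Group C. None was called by limma, with adjusted p-values from 0.0682 to 0.221, and 5 met the methods' criterion. From Group M to Group D the median difference was 0.42 on 11 arrays, with 11 of 13 higher in Group D, but 0.11 with D12, with 8 of 13 higher, and -0.05 without D10, with 6 of 13 higher. D12 was the lowest of Group D in 11 of the 13. Between Groups D and C all 13 were higher in Group D, with a median of 1.16, or 0.93 with D12. On 11 arrays every rat of Group D lay above every rat of Group C in 11 of the 13. In that comparison 11 met the methods' criterion and 0 were called by limma. M5 was the highest of Group M in all 13 and D10 the highest of Group D in all 13. Since these genes are similar in sequence, probes of the cluster may share signal and are not independent readings.

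Mcpt8, counted here among the basophil markers, ran from 0.72 to 0.98 in Group C and from 1.16 to 1.56 in Group M. It was 1.54, 2.32, 1.67 and 0.77 in D9 to D12. Over the 12 rats it ran like Mcpt2 (Pearson's r 0.91), and whether it stands for basophils in these rats was not tested. Mcpt10 lay higher in D9, D10 and D11 than in every rat of the other groups, at -1.85, -1.21 and -1.73, whereas D12 was at -2.73. Mcpt3 was well above background on 2 arrays, Mcpt4 on 4, and Mcpt4l1 on none. The other basophil markers did not move with Mcpt8: Prss34 and Il3ra differed between Groups M and C by 0.03 and -0.30.

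**Figure D4:**
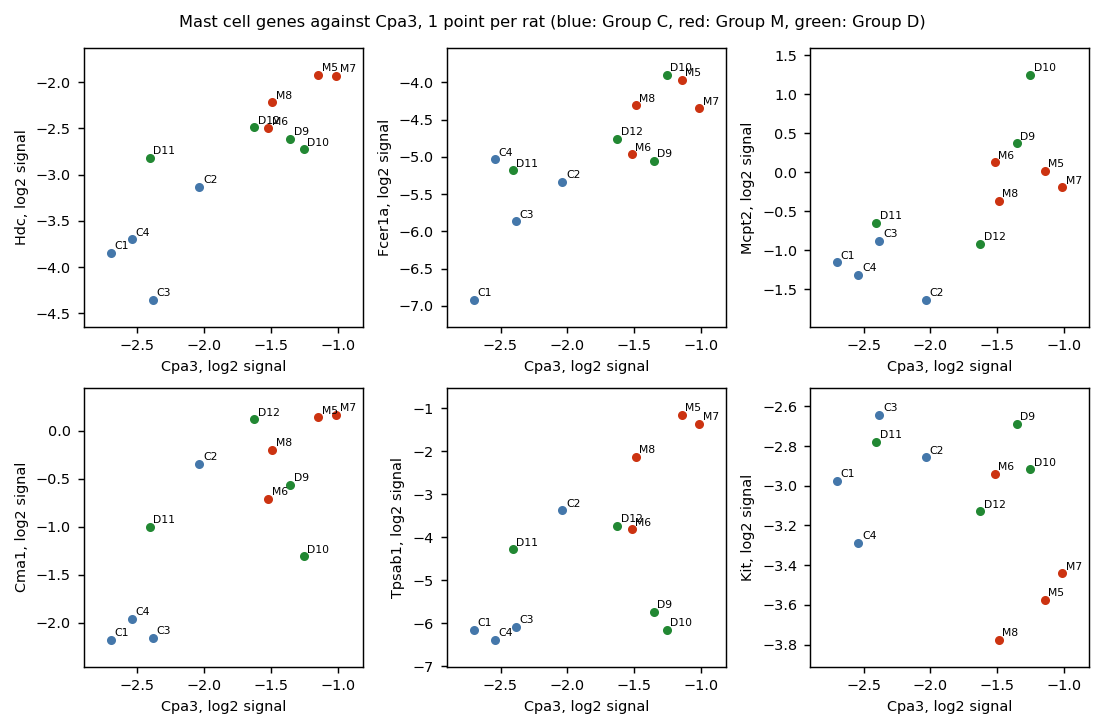
Level of Hdc, Fcer1a, Mcpt2, Cma1, Tpsab1 and Kit against Cpa3 in the same rat, both as log2 signal relative to the array's 75th percentile, with points coloured by group. Points of Groups C and M form separate clusters along the Cpa3 axis, with Group D across both.

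The members were also set against Cpa3 rat by rat. Groups C and M do not overlap in Cpa3, so a correlation over all rats carries the difference between the groups, and no pooled coefficient of a member is given. Over the 12 rats, 6 of the 9 other genes passed a two-sided permutation test of Pearson's r at an adjusted p of 0.05 over the 9 relations, and 7 passed for Spearman's rho. After each group's mean was subtracted, with rats exchanged only within groups, none of the 9 passed. The values of r were then 0.55 for Fcer1a (permutation p = 0.0883, adjusted p = 0.397), 0.47 for Hdc (permutation p = 0.0695, adjusted p = 0.397) and between -0.30 and 0.49 for the other 7. A relation within groups was thus not detectable with 12 rats. In the pooled test without C1 and C4, the rats farthest from the median of Cpa3, 3 of the 9 passed. No group means were subtracted there, so that count also carries the difference between the groups.

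The probes whose levels ran most like Cpa3 over the 12 rats, among 13976 named probes well above background on every array, were Mcpt1l4 (Pearson's r 0.94), nod3l (0.91), Ywhae (0.89), Dynll1 (0.88) and Zfp385a (0.87). Those most like Mcpt2 were Mcpt1l4 (a second probe, 0.997), Mcpt9 (0.93), Mcpt8l3 (0.92), Mcpt8 (0.91) and Mcpt10 (0.90), all of the chymase cluster. These coefficients carry the differences between the groups and are descriptions over rats that share groups and slides, with no test.

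Promoters are shown because several members lay higher together in Group M. GATA factors are known regulators of mast cell genes, and their core motif GATAA, or TTATC on the other strand, was searched in the 150 bases before the start of each gene in RefSeq's sequences (GRCr8). Of all 33469 promoters 14.2% held it, and of the 9 member genes with an entry 6 did. The sequences of 4 genes are printed, with matches in capitals. They lie on chr15:33569591-33569740 (plus strand) for Vch, the array's Mcpt1, on chr15:33841456-33841605 (plus strand) for RefSeq's Mcpt1, the array's Mcpt2, on chr15:33876896-33877045 (minus strand) for Mcpt1l1 and on chr2:104673238-104673387 (minus strand) for Cpa3.
Vch: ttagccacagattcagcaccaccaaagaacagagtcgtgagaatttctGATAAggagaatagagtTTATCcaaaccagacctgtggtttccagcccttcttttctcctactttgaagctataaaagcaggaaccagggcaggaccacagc
Mcpt1: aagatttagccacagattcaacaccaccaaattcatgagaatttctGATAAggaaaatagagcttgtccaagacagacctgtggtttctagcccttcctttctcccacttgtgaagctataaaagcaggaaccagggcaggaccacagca
Mcpt1l1: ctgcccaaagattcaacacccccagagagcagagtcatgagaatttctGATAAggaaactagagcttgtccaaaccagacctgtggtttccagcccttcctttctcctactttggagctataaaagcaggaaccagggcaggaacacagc
Cpa3: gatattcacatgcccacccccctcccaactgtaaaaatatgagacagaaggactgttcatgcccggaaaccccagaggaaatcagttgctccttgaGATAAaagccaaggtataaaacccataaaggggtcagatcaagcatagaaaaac
The first match began 102 bases before the start in Vch and in Mcpt1l1, 104 in Mcpt1 and 54 in Cpa3. Vch and Mcpt1l1, which is not a member, were identical at 134 of 150 positions. Vch and Mcpt1, which are both among the 6, were identical at 87 of 150 with an offset of 2. These matches are thus not separate events, and the 6 of 9 are not independent of one another. Cma1, Tpsab1 and Fcer1a also held a match, 63, 29 and 93 bases before their starts, and no match lay in this window for Tpsb2, Kit or Hdc. A match of these letters is a description of the sequence and not a measured site.

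Around the members, 7 lists of related genes were read, and none of their genes was called by limma in any of the 3 comparisons. Of 18 genes that signal from the IgE receptor, all well above background on every array, 15 were higher in Group M than in Group C, with a median difference of 0.77, and 15 were lower in Group D than in Group M, with a median of -0.98. Without both C2 and M6 the first median was 1.40, and with D12 the second was -0.40. Over all probes those medians were -0.01 and 0.01. Btk, a kinase of the pathway, differed by 1.51 between Groups M and C (limma adjusted p = 0.210), Vav1, an exchange factor, by 0.94 (limma adjusted p = 0.250), and Prkcb, a protein kinase C, by 0.87 (limma adjusted p = 0.287). Fyn, a Src-family kinase, met the methods' criterion between Groups D and M, at -1.01 (limma adjusted p = 0.120), which with D12 was -0.64. Without C2 and M6 the difference of Btk between Groups M and C was 2.65. The mean of this list was -2.64, -1.66, -2.57 and -2.55 in Group C, -1.32, -2.61, -1.62 and -1.56 in Group M and -2.68, -2.47, -2.48 and -0.86 in Group D. C2, M6 and D12 lay here as in the lymphocyte markers, whose part in this list was not tested; lymphocytes and other blood cells also express most of these genes.

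Of 15 genes for mast cell growth, homing and transcription, 10 were higher in Group M than in Group C, with a median of 0.29. Il1rl1, the IL-33 receptor, differed by 1.88 (limma adjusted p = 0.134), Itga4 by 0.70 (limma adjusted p = 0.350) and Itgb7 by 0.62 (limma adjusted p = 0.471), the integrin chains that together bring cells to the gut. From Group M to Group D, Il1rl1 differed by -2.15 (limma adjusted p = 0.130), or -1.65 with D12. Without C2 and M6 the differences of Il1rl1, Itga4 and Itgb7 between Groups M and C were 2.89, 1.41 and 1.44. Kitlg, the ligand of Kit, differed by -0.09 between Groups M and C.

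The further mast cell and basophil proteases overlap with the cluster described above. Of 14 on the array 12 were higher in Group M than in Group C, with a median of 0.55. Mcpt1l4 differed by 1.85 (limma adjusted p = 0.0724), Mcpt8l2 by 1.20 (limma adjusted p = 0.0896) and Srgn, the proteoglycan core that packs granule proteases and is also made by other blood cells, by 1.20 (limma adjusted p = 0.155), or 1.97 without C2 and M6. Mcpt1l4 and Mcpt8l2 met the methods' criterion here, and 5 of the list met it between Groups D and C.

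The genes that handle histamine did not share the pattern of Hdc. Of 8 measured, 4 were higher in Group M than in Group C, with a median of 0.01. Slc22a3, a transporter that takes up histamine, differed by -1.04 (limma adjusted p = 0.308), or -0.53 without M7, and the receptors Hrh1 and Hrh4 by -0.45 (limma adjusted p = 0.185) and 0.25 (limma adjusted p = 0.437). Hrh2 and Hnmt were well above background on no array.

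Lipid mediator genes had a median of -0.01 between Groups M and C, with 5 of 10 higher. Lta4h, which makes leukotriene B4, differed by -0.48 (limma adjusted p = 0.130), and Hpgds and Ltc4s, which make prostaglandin D2 and leukotriene C4, both by -0.23. Ptgs2, the inducible cyclooxygenase, met the methods' criterion with a difference of 1.61 (limma adjusted p = 0.101) on a probe well above background on 11 of 12 arrays.

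Among 6 type 2 cytokines and alarmins, Il33 was the 1 well above background on every array, and it differed by 0.01 between Groups M and C. Il5, the growth cytokine of eosinophils, was singled out after its values were seen. It was -5.12, -6.33, -3.10 and -4.30 in M5 to M8, all well above background, and was so in 1 rat of Group C and in none of Group D. For D9 to D11 the same kind of bound was used as for Mcpt1, with a rat's own signal where that was higher. The mean of Group M was 5.75-fold above it (limma adjusted p = 0.0810 for Groups D and M), and 6.00-fold with D12. These folds are not minima either. The list's median differences were 0.33 between Groups M and C and -0.24 between Groups D and M.

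Of 8 substrates, receptors and inhibitors of mast cell proteases, 4 were higher in Group M than in Group C, with a median of 0.05. F2r, the thrombin receptor, differed by 0.76 (limma adjusted p = 0.0460), below the 2-fold limit. F2rl1, the receptor that tryptase cleaves, differed by -0.53 (limma adjusted p = 0.206), and Serpina3n, a serine protease inhibitor, by 0.54 (limma adjusted p = 0.191).

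**Figure D5:**
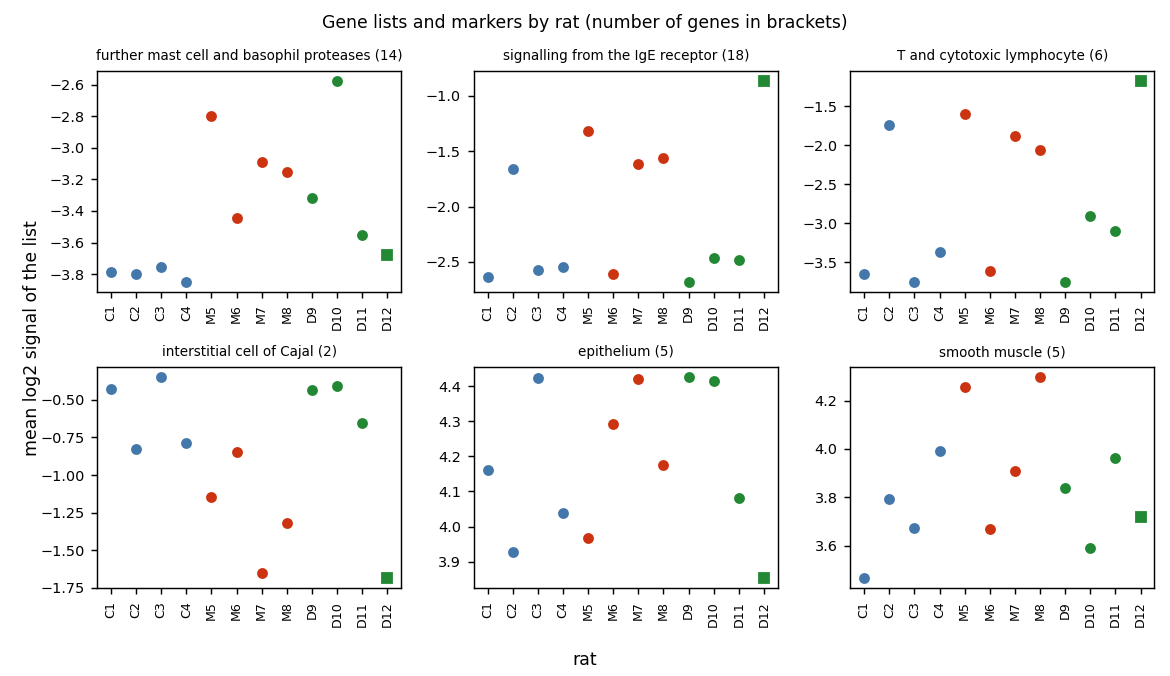
Mean level of 2 gene lists and 4 marker lists in each rat, one panel each, as log2 signal relative to the array's 75th percentile, with rats C1 to D12 along the horizontal axis and D12 as a square. The lymphocyte and IgE receptor signalling lists are high in C2 and D12 and low in M6 relative to their groups, and the list of further proteases is highest in D10.

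Markers of other cells that make or could share these transcripts stood as follows. Of 5 eosinophil markers Epx, Prg3 and Il5ra were well above background on no array and Prg2 on all, and the list's mean ran from -7.70 to -7.30 in Group C, from -7.74 to -6.49 in Group M and from -7.62 to -7.11 in Group D. Of 3 basophil markers 2 were well above background on every array, with means from -2.15 to -1.65, from -1.82 to -1.63 and from -1.89 to -1.08 in the same order of groups. These means include Mcpt8, which ran like the chymase Mcpt2. Neutrophil markers, 2 of 5 well above background on every array, had a mean from -6.69 to -5.88 in Group C, from -6.25 to -3.70 in Group M and from -6.39 to -5.57 in Group D. S100a8, a neutrophil calcium-binding protein, differed by 2.10 between Groups M and C (limma adjusted p = 0.190), and by 1.16 without M7, its highest rat. Macrophage markers, all 5 measured well above background, had means from -1.92 to -1.53, from -1.90 to -1.35 and from -2.18 to -1.61. The part of these cells in the values of the members was not tested.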

How the data were processed

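RNA (RNA integrity number above 6 per the labels) was hybridised with Cy3 to 1-colour Agilent rat arrays, 62976 spots each, and the scanned images were read with Agilent Feature Extraction. The deposited intensity is the processed signal, which the authors' software had background-corrected; probe positions are rn4 per the file headers. The authors' deposited matrix, on a log2 scale, served as an alternative.

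Controls (4259 spots) and 277 to 521 outlier spots per array were dropped, none was saturated, and 75.5% to 77.5% of spots were well above background. Signals were taken as log2, shifted by each array's 75th percentile (1434 to 1953) and averaged per probe. Limma 3.58.1 in R 4.3.3 fitted group means to 11 arrays, with Benjamini-Hochberg adjustment over 30367 probes (19 lacked a value on an array). Depth does not apply to arrays; their number limits the precision. On simulated data (200 of 30348 probes changed by a log2 difference of 3) 191 were recovered for Group M against Group C, with 8 false calls. The simulated probes varied independently, and the members' median difference was 1.17. The recovery thus does not show how often differences of the members' size would be called.

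Relations to Cpa3 over all rats used permutation tests in Python with 100000 resamples, with ranks from SciPy 1.17.1. Where group means were subtracted, every exchange of rats within groups was taken instead. The members, gene lists and tests were chosen with earlier results of these data known. Besides the members, the text names list genes that were called and otherwise the 2 or 3 of a list with the largest absolute difference between Groups M and C among genes well above background on every array, markers beside a member, and the 5 genes most like Cpa3 and Mcpt2; other chymase cluster genes, Kitlg, genes named for the methods' criterion alone, those listed as not above background, and Il5 were added after their values were seen. Alternatives were other background corrections, normalizations, filters, array weights, a replicate block, 12 arrays and leaving out each rat. RefSeq tables (GRCr8) gave current names and promoters; Ms4a2's promoter was not analysed here.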

Additional observations from a re-analysis of the deposited data

Results flagged for a closer look

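In Group C, rat C2 lay far above the other 3 rats for Cma1, at -0.34 against -1.96 for the next, a gap of 0.88 of the group's range. The same rat lay far above the others for Tpsab1, at -3.37 against -6.08 for the next, a gap of 0.90 of the range. Both gaps pass Dixon's limit for 4 samples. Of 33 groups of values examined these 2 passed, and chance passes about 1 in 20.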

How the results depend on the processing

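The number of member probes called between Groups M and C was 1 on 11 arrays. It was 7 with array quality weights (2125 of all probes, against 50), 7 by the methods' criterion (701), 9 at an unadjusted p not above 0.01 and no fold limit (2442), and from 0 to 7 when 1 rat was left out: 7 without M6 (1772 of all probes), 3 without C2 (66), 1 without D10 and 0 without any other. Without both C2 and M6, a choice made after seeing the data, it was 8, among 2632 of all probes. Between Groups D and M the number, 0 on 11 arrays, was 1 with weights (2107 of all probes, against 39) and 1 by the methods' criterion (807). It was 2 at the unadjusted p (2345) and from 0 to 2 with 1 rat left out (2 without M6, with 1978). Without both C2 and M6 it was 2 (number over all probes not given here). Between Groups D and C it was 3 by the methods' criterion (112 of all probes, against 2). It was 3 at the unadjusted p (number over all probes not given here), and from 0 to 0 with 1 rat left out. Nothing is read from counts without that number. The cause of these shifts was not tested.

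With the replicate number as a block, 0 member probes were called between Groups M and C. Same-numbered rats did not deviate together (r over 0.1 in 3 of 12 pairs, range -0.72 to 0.58), so the numbers do not pair the rats.

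Hdc's adjusted p between Groups M and C ran from 0.000605 to 0.185 over 22 settings. No called difference changed sign. With normexp background correction the differences shrank, for Mcpt1 to 1.16 and for Tpsab1 to 2.04. The number of genes varying with Cpa3, 6, was 0 with group means subtracted, 3 without C1 and C4, and from 5 to 8 with 1 rat left out. Signal near background limits Mcpt1, Fcer1a and Il5.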
